A study of Homo sapiens with 16 samples.

Results

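The genes described here encode the secreted transforming growth factor beta (TGF-beta) ligands TGFB1, TGFB2 and TGFB3, their receptors TGFBR1 and TGFBR2, the latent TGF-beta binding proteins LTBP1, LTBP2, LTBP3 and LTBP4, and TGFB1I1, a TGF-beta-inducible adaptor of focal adhesions. They were chosen by name as members of the pathway, and they are 10 of the 20114 genes in the deposited count table. All 10 passed the filter on low counts and stood among the 14035 genes tested. RNA had been sequenced from 2 human tumour cell lines, Hs578 and TT642, to ask what lowering of the homeobox transcription factor PRRX1 does. Each line was sequenced as 3 numbered lines derived with a doxycycline-inducible hairpin against PRRX1, with doxycycline (3 µg/ml) and without it, and as parental cells with and without the drug, which gave 16 libraries. The hairpin groups thus hold 3 libraries each and the parental groups 1. The numbers 1 to 3 in the library names are read here as 3 different hairpins, each in a derived line of its own. That is a reading of the titles, which do not spell it out. Hs578 carries a breast cancer label and TT642 a rhabdoid tumour label, whereas the series describes both as triple-negative breast cancer lines.

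TGF-beta ligands are secreted in a latent form, wrapped in their own propeptide and, in most cells, tied to an LTBP that anchors the complex in the extracellular matrix. Integrins, proteases or thrombospondin release the ligand, which then binds TGFBR2. TGFBR2 in turn phosphorylates TGFBR1, and TGFBR1 passes the signal to SMAD proteins. In breast cancer cells the pathway is known for driving matrix production and mesenchymal traits.

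Total counts ran from 13461527 to 19139654 in Hs578 libraries and from 15265227 to 24672906 in TT642 libraries. PRRX1 was lower with doxycycline in all 6 derived lines, where 12.7% to 32.1% of the level without doxycycline was left in Hs578 and 13% to 39.4% in TT642, against 103% in both parental lines. Vimentin (VIM), a mesenchymal filament, was high in both lines, at 4081 to 5874 CPM in Hs578 and 9915 to 11007 CPM in TT642 (CPM, counts scaled to the library size after TMM correction). Of 8 mesenchymal markers, 6 were called higher and 2 lower in uninduced Hs578 than in uninduced TT642 lines (41% and 39.7% of all genes). FN1 (fibronectin) had 10219 to 17802 CPM in Hs578 against 0.194 to 3.96 CPM in TT642. SPARC, a matrix glycoprotein, had 1322 to 3507 CPM against 19.4 to 45.4 CPM, and the transcription factor TWIST1 20.2 to 46.4 CPM against 0.514 to 1.59 CPM. COL1A1 had 2042 to 12257 CPM against 88.1 to 1129 CPM, and ZEB1 55.1 to 102 CPM against 13.7 to 35.1 CPM. ZEB2 ran the other way, at 45.8 to 93.2 CPM against 136 to 173 CPM, and CDH2 overlapped (301 to 415 CPM and 73.7 to 499 CPM). Of 8 epithelial markers 4 were tested, and of these 3 were called higher and 0 lower in uninduced Hs578 lines. KRT18 had 185 to 401 CPM in Hs578 against 0.113 to 1.54 CPM in TT642. KRT8 had 27.7 to 56.4 CPM against 0.283 to 1.54 CPM. CDH1 and EPCAM were at most 0.366 and 0.27 CPM in Hs578 and 0.103 and 0.186 CPM in TT642. The hormone receptors ESR1 and PGR were at most 0.607 and 3.50 CPM in Hs578 and 0.0603 and 0.737 CPM in TT642. ERBB2 (HER2) was read at 69.9 to 78.8 CPM in Hs578 and 110 to 173 CPM in TT642. SMARCB1, the gene lost in most rhabdoid tumours, was detected in TT642 at 28.8 to 41.6 CPM, against 87.7 to 125 CPM in Hs578. The T cell marker CD3E had no count in any library, whereas the macrophage marker CD68 was read at 43.2 to 105 CPM in Hs578 and 12.2 to 17.2 CPM in TT642. Hs578 libraries with doxycycline also differed from those without it in mitochondrial transcripts, which took 3.18%, 4.27% and 5.44% of counts in the induced derived lines, against 2.79%, 2.29% and 2.16% without doxycycline. In Hs578 parental cells that share was 4.16% with doxycycline and 2.73% without it. The summed level of 8 mesenchymal marker genes was 25767 to 35675 CPM in induced Hs578 lines and 18544 to 20476 CPM without doxycycline, and 34163 CPM with and 18334 CPM without the drug in parental cells. Of those 8 genes, 3 were called higher with induction, namely TWIST1, COL1A1 and SPARC, against 15.2% of all genes tested. What part these differences have in the results below was not tested.

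Between the lines, the widest gaps among the 10 genes were those of TGFB2 and LTBP1. By RNA, Hs578 carried TGFB1 and TGFB2 as its ligands and LTBP1 as its most abundant LTBP. TT642 carried TGFB1 almost alone as a ligand and LTBP4 as its most abundant LTBP. Levels of different genes are compared here as FPKM, which divides a gene's fragments by transcript length and library depth. In uninduced Hs578 derived lines the order ran from LTBP1 at 192 ± 6.31 FPKM and TGFB1 at 149 ± 6.11 FPKM to TGFB3 at 1.06 ± 0.283 FPKM (SD, n = 3). In between, TGFB1I1 and TGFBR2 (52.5 and 51.4 FPKM), TGFB2 and LTBP3 (32.7 and 32.5 FPKM), and LTBP4, TGFBR1 and LTBP2 (18.1, 17.6 and 16.2 FPKM) were neighbours whose ranges over the 3 libraries overlapped. In uninduced TT642 derived lines LTBP4 came first at 61.0 ± 4.76 FPKM, followed by TGFB1 (50.2 FPKM) and TGFBR2 (47.8 FPKM), whose ranges overlapped. LTBP3 and TGFB1I1 (27.9 and 25.4 FPKM) overlapped as well, as did TGFBR1 and LTBP2 (13.2 and 9.14 FPKM) and LTBP1 and TGFB3 (2.33 and 1.81 FPKM), and TGFB2 was last at 0.1 ± 0.0772 FPKM.

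**Figure D1:**
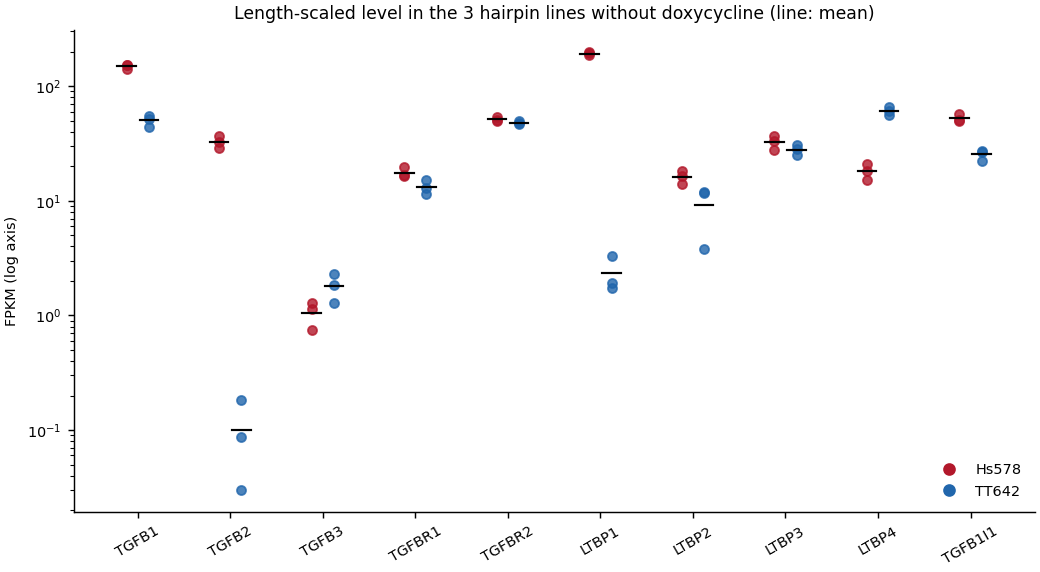
FPKM of each gene, on a log axis, in the 3 uninduced derived lines of Hs578 (red) and of TT642 (blue), with 1 point per library and a bar at the mean. TGFB2 (32.7 against 0.1 FPKM on average) and LTBP1 (192 against 2.33 FPKM) stand farthest apart between the lines. TGFBR2 points nearly meet without overlap (49.6 to 54.3 against 46.3 to 49.5 FPKM), and LTBP3 and TGFB3 points overlap.

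By edgeR's quasi-likelihood test with Benjamini-Hochberg adjustment, 8 of the 10 genes differed between the uninduced derived lines of Hs578 and of TT642 at an adjusted p under 0.05, against 80.8% of all genes tested. Of these, 7 were higher in Hs578 (background 41%) and LTBP4 alone was lower (background 39.7%). A count of 8 in 10 is close to the share of all genes, and what follows rests on the sizes of the differences. The median log2 fold change of the 10 genes was 0.93, and that of all genes tested was 0.01. The labels do not say whether libraries of a group came from separate cultures, and the 3 libraries of a hairpin group are read as different hairpins, so the tests reflect the spread of these libraries alone.

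TGFB2, the ligand that depends most on a co-receptor for binding TGFBR2, had 234, 184 and 203 CPM in uninduced Hs578 lines 1, 2 and 3, against 1.08, 0.486 and 0.167 CPM in the TT642 lines with the same numbers. The TT642 values rest on 19, 10 and 3 counts. The lowest of all 8 Hs578 libraries had 162 CPM and the highest of all 8 TT642 libraries 1.63 CPM, so the lines did not overlap (log2 fold change 8.49, SE 0.27, adjusted p = 4.36e-12, edgeR). LTBP1, which binds the latent complex and ties it to fibrillin and fibronectin fibres, had 1155, 1018 and 1106 CPM in uninduced Hs578 lines, against 8.96, 6.13 and 6.90 CPM in uninduced TT642 lines (log2 fold change 7.22, SE 0.19, adjusted p = 1.25e-13, edgeR). TGFB1, the most widely expressed ligand, had 476, 503 and 479 CPM in uninduced Hs578 lines and 133, 147 and 156 CPM in uninduced TT642 lines (1.74, SE 0.09, adjusted p = 1.72e-10). LTBP4, an elastic fibre protein that binds latent TGFB1 weakly, ran the other way, with 58.6, 49.1 and 54.8 CPM in uninduced Hs578 lines and 225, 205 and 254 CPM in uninduced TT642 lines (-2.07, SE 0.13, adjusted p = 1.25e-09). The Hs578 and TT642 libraries did not overlap for TGFB1, LTBP1 or LTBP4 under any treatment.

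TGFB1I1 averaged 70.5 ± 7.54 CPM in uninduced Hs578 lines and 29.3 ± 4.70 CPM in uninduced TT642 lines (SD, n = 3), a log2 fold change of 1.27 (SE 0.16, adjusted p = 5.95e-06, edgeR). LTBP3, a partner of latent TGF-beta in bone and teeth, was higher by 0.68 (SE 0.12, adjusted p = 7.2e-05), a call lost on the FPKM scale (0.21, adjusted p = 0.169 by limma on log2(FPKM + 1)). The type I receptor TGFBR1 was higher by 0.69 (SE 0.11, adjusted p = 5.02e-05), but not among induced lines (0.15, adjusted p = 0.244). LTBP2, a microfibril protein that does not bind latent TGF-beta, was higher by 1.17 (SE 0.41, adjusted p = 0.0253). This call was lost without the uninduced Hs578 library of hairpin 1 (adjusted p = 0.0571) or of hairpin 3 (0.0505), and without both hairpin 1 libraries (0.115) or both hairpin 3 libraries (0.111) of each line. It was also lost with the parental libraries added (0.79, adjusted p = 0.0944) and with libraries without doxycycline alone (1.17, adjusted p = 0.0658). TGFBR2 (0.27, SE 0.12, adjusted p = 0.0519) and TGFB3 (-0.64, SE 0.31, adjusted p = 0.0676) missed the threshold by edgeR. TGFBR2 was called in 5 alternatives, by DESeq2 (0.28, adjusted p = 0.0359), with relative log expression scaling (0.0434), without the filter on low counts (just under 0.05), with the parental libraries added (0.00578) and with libraries without doxycycline alone (0.00446). TGFB3 was called in 5, without the uninduced TT642 library of hairpin 2 (-0.84, adjusted p = 0.0263), by limma on log2(FPKM + 1) and log2(FPKM + 0.1) values (0.0271 and 0.0351), with the parental libraries added (0.0402) and with libraries without doxycycline alone (0.0294).

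The promoters of TGFB2, LTBP1 and TGFB1 are shown because TGFB2 and LTBP1 had the widest gaps between the lines and TGFB1 was the ligand with the highest level in both. Each run is the 250 bases directly upstream of a transcription start listed by RefSeq on GRCh38.p14, 5′ to 3′ on the strand of the gene, a build that differs from the hg19 build of the counts. TGFB2 lies at chr1:218345086-218345335 on the plus strand, LTBP1 (the farthest upstream of 3 listed starts) at chr2:32946703-32946952 on the plus strand, and TGFB1 at chr19:41353923-41354172 on the minus strand. Capitals mark matches, on either strand, to 6 motifs that were searched, none of which overlapped another in these runs. The motifs were the homeodomain core TAATTA, the AP-1 site as TGACTCA, the cyclic AMP response element as TGACGTCA, the Sp1 box with the letters GGGCGG, the SMAD box with the letters CAGACA, and the TATA box with the letters TATAAA.
TGFB2: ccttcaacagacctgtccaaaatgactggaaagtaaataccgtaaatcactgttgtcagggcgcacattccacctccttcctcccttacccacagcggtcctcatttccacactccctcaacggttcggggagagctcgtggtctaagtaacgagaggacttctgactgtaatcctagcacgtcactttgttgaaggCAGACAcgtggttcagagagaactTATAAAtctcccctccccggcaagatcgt
LTBP1: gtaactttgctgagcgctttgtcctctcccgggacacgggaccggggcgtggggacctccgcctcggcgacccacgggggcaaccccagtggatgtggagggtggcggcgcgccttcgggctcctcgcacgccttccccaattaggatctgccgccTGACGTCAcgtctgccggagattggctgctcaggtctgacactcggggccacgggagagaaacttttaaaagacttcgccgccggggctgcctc
TGFB1: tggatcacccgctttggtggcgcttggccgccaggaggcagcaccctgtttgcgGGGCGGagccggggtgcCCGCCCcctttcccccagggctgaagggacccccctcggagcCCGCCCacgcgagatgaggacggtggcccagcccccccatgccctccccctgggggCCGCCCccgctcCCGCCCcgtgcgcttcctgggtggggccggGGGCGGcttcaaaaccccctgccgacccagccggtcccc

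The TGFB2 run held 1 TATAAA, ending 23 bases before the start, and 1 CAGACA, ending 47 bases before it, and its GC content was 50.4%. The LTBP1 run held 1 TGACGTCA, and the TGFB1 run 6 GGGCGG, with GC contents of 66.4% and 76.8%. All 10 genes had an entry among the 35116 RefSeq promoters, some with several starts, and no window of any of them held TAATTA or TGACTCA. Over all promoters, windows of the same length held TAATTA in 4.35%, TGACTCA in 4.2%, TGACGTCA in 1.65%, GGGCGG in 42.6%, CAGACA in 13.6% and TATAAA in 10.7%. A match describes letters and not a bound site.

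In Hs578, induction of the hairpins came with more TGFB1, LTBP3 and TGFB1I1 RNA and less TGFBR1 and TGFBR2 RNA. The changes were small, between 0.28 and 0.62 on the log2 scale in either direction. By edgeR, 5 of 10 genes were called, against 29.3% of all genes tested. The 3 that rose stand against a background of 15.2% and the 2 that fell against 14.1%. Induced and uninduced libraries did not overlap for 7 of the 10 genes, the 5 called ones with TGFB2 and LTBP2, against 44.1% of all genes tested. With derived line as a replicate block 7 genes were called, against 34.6% of all genes, and with Hs578 libraries alone also 7, against 27.9%. The median log2 fold change was 0.29 for the 10 genes and 0 for all genes tested. In bulk RNA, fewer cells that express a gene and less RNA per cell cannot be told apart.

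**Figure D2:**
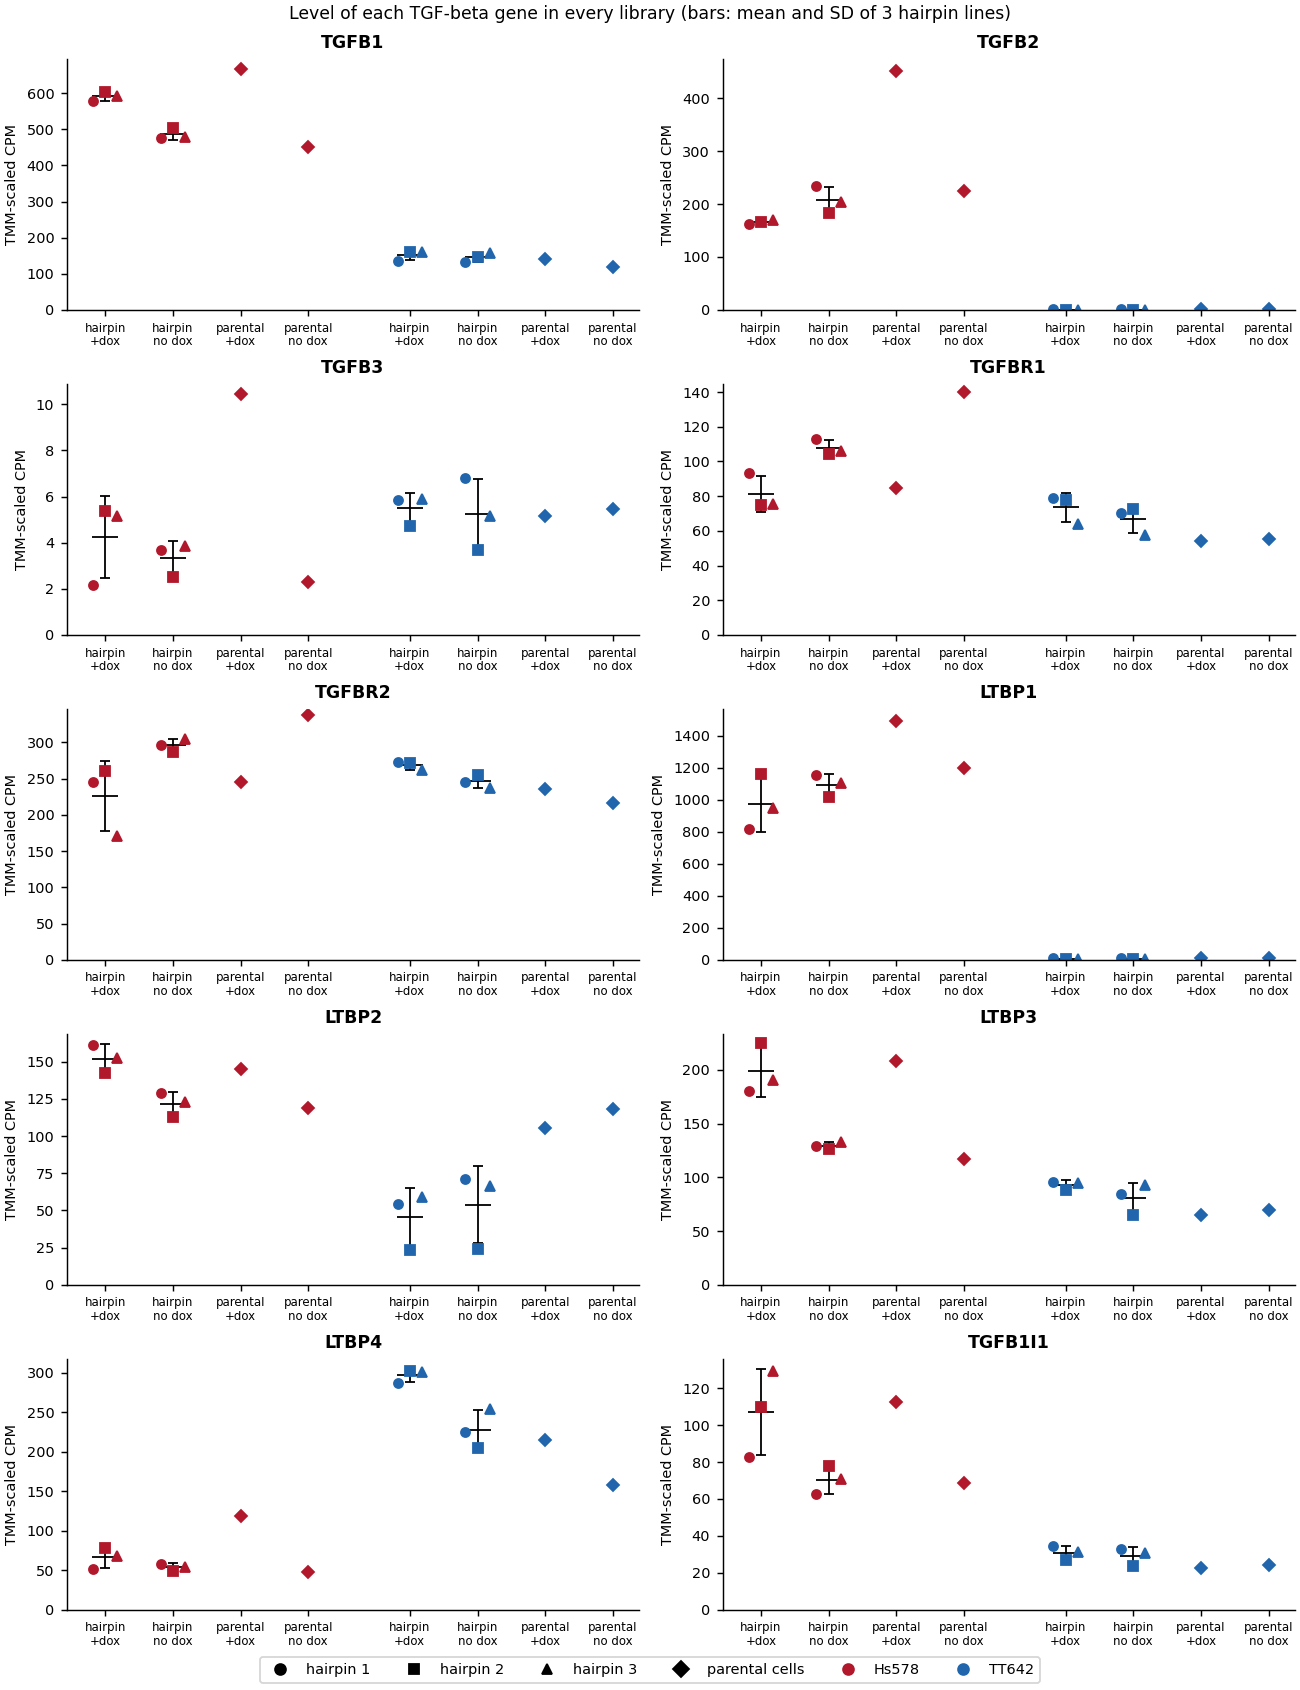
TMM-scaled CPM of each gene in every library, Hs578 in red and TT642 in blue. Circles, squares and triangles are hairpins 1, 2 and 3, diamonds are parental cells, and bars are the mean and SD of the 3 hairpin lines. In Hs578, induced TGFB1, LTBP3 and TGFB1I1 points lie above and TGFBR1 and TGFBR2 points below the uninduced points, while TGFB2 is lower in induced lines and at 451 CPM in parental cells with doxycycline.

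Among the ligands, TGFB1 had 578, 604 and 593 CPM in induced Hs578 lines 1, 2 and 3, against 476, 503 and 479 CPM without doxycycline. Every induced library lay above every uninduced one, and the 3 log2 ratios of hairpin lines were close to each other, at 0.28, 0.26 and 0.31. Parental Hs578 cells, which hold no hairpin, had 667 CPM with doxycycline and 450.5 CPM without it, a log2 ratio of 0.57. The fitted change in the derived lines was 0.28 (SE 0.09, adjusted p = 0.0277, edgeR). The call was lost without the induced library of hairpin 2 or 3 (adjusted p = 0.0796 and 0.0617), without the uninduced library of hairpin 1 or 3 (0.0892 and 0.0851), without both libraries of hairpin 1, 2 or 3 (0.067, 0.095 and 0.209), and on the FPKM scale (0.24, adjusted p = 0.0637, limma). TGFB1 overlaps HNRNPUL1, CCDC97 and TMEM91 on the opposite strand in GENCODE v29, and TGFB3 overlaps IFT43. The sources used here do not say whether counting used strand, so reads of these pairs cannot be told apart.

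TGFB2 had 162, 167 and 169.7 CPM in induced Hs578 lines, against 234, 184 and 203 CPM without doxycycline. All 3 induced libraries lay below the uninduced ones, with log2 ratios of -0.52, -0.14 and -0.26, but the fitted change was not called (-0.32, SE 0.16, adjusted p = 0.154, edgeR). It was called with derived line as a replicate block (-0.31, adjusted p = 0.0202), by DESeq2 (-0.35, adjusted p = 0.0192), with Hs578 libraries alone (-0.33, adjusted p = 0.0337), and by limma on log2(FPKM + 1) (-0.40, adjusted p = 0.012). Parental Hs578 cells moved the other way, with 451 CPM in the doxycycline library and 224 CPM in the library without it, a log2 ratio of 1.01. TGFB3, the scarcest ligand in Hs578, had 2.18, 5.36 and 5.15 CPM in induced lines and 3.66, 2.50 and 3.86 CPM without doxycycline, which overlapped (0.33, SE 0.32, adjusted p = 0.462, edgeR). In parental cells TGFB3 had 10.5 CPM with doxycycline and 2.30 CPM without it, from 155 and 40 counts.

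As a share of the summed FPKM of the 3 ligands, TGFB2 made up 12.1% ± 0.456 in induced Hs578 lines and 17.9% ± 2.22 in uninduced ones (SD, n = 3). These shares ran from 11.6% to 12.5% and from 15.9% to 20.3%, so they did not overlap. In parental Hs578 cells the share was 25.1% with doxycycline and 20.3% without it. In TT642, TGFB1 made up 96.3% of the ligand sum both with and without induction.

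Both receptors fell in induced Hs578 lines. TGFBR1, the kinase that phosphorylates SMAD2 and SMAD3, had 93.1, 75.1 and 75.5 CPM in induced lines, against 113, 104 and 106 CPM without doxycycline. Each induced library lay below each uninduced one (log2 fold change -0.41, SE 0.11, adjusted p = 0.0157, edgeR). Parental cells had 84.4 CPM with doxycycline and 140.3 CPM without it, a log2 ratio of -0.73 that was lower than those of all 3 derived lines (-0.28, -0.47 and -0.49). The TGFBR1 call was lost without the induced library of hairpin 2 or 3 (adjusted p = 0.0691 and 0.064), the uninduced library of hairpin 1 (0.0663), or both libraries of hairpin 2 or of hairpin 3 (0.0921 each).

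TGFBR2, the receptor that binds the ligand first, had 246, 261 and 171 CPM in induced Hs578 lines and 296, 287 and 305 CPM without doxycycline. The groups did not overlap, and the induced library of hairpin 3 was the lowest (-0.39, SE 0.12, adjusted p = 0.0249, edgeR). Without that library the change was -0.22 (adjusted p = 0.0608), and without both libraries of hairpin 3 it was -0.21 (adjusted p = 0.25). The call was also lost without the uninduced library of hairpin 1 or 3 (adjusted p = 0.0707 and 0.0721) and without both libraries of hairpin 1 (0.0829). In parental cells TGFBR2 had 245 CPM with doxycycline and 338 CPM without it, a log2 ratio of -0.46.

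Among the LTBPs, LTBP3 changed most clearly. It had 180.2, 226 and 191 CPM in induced Hs578 lines 1, 2 and 3, against 129.6, 126 and 133 CPM without doxycycline. The lowest induced library stood above the highest uninduced one, and the fitted rise was 1.53-fold (log2 fold change 0.62, SE 0.12, adjusted p = 0.00204, edgeR). LTBP3 kept its call in all 17 alternatives run, with adjusted p from 5.14e-05 to 0.0327. Parental cells had 209 CPM with doxycycline and 117 CPM without it, a log2 ratio of 0.83, close to the 0.83 of hairpin 2 and above those of hairpins 1 and 3 (0.48 and 0.52).

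LTBP1 had 816, 1159 and 946 CPM in induced Hs578 lines, against 1155, 1018 and 1106 CPM without doxycycline. The groups overlapped and the hairpins moved in different directions, with log2 ratios of -0.50, 0.19 and -0.23 (fitted change -0.17, SE 0.14, adjusted p = 0.4, edgeR). Parental cells had 1493 CPM with doxycycline and 1199.6 CPM without it. LTBP2 had 162, 142 and 152 CPM in induced lines and 129, 112 and 123 CPM without doxycycline, which did not overlap, with log2 ratios of 0.33, 0.34 and 0.31. Its change of 0.33 was not called when all 16 libraries shared 1 fit (SE 0.40, adjusted p = 0.595, edgeR), but it was with derived line as a replicate block (adjusted p = 0.00726), with Hs578 libraries alone (adjusted p = 0.0308) or without both libraries of hairpin 2 (adjusted p = 0.0351). TT642 lines spread widely in LTBP2, which had 71.3, 23.9 and 66.6 CPM in the uninduced TT642 lines.

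LTBP4 had 52.1, 78.4 and 68.3 CPM in induced Hs578 lines and 58.6, 49.1 and 54.8 CPM without doxycycline. Hairpins 2 and 3 were higher with induction and hairpin 1 was lower (fitted change 0.29, SE 0.13, adjusted p = 0.104, edgeR). The change was called without the induced library of hairpin 1 (0.44, adjusted p = 0.00684) and without both libraries of hairpin 1 (0.50, adjusted p = 0.0216). Parental cells had 119 CPM with doxycycline and 47.7 CPM without it, a log2 ratio of 1.32. Of the summed FPKM of the 4 LTBP transcripts, LTBP1 made up 62.7% ± 2.06 in induced Hs578 lines and 74.3% ± 2.10 in uninduced ones (SD, n = 3). LTBP3 made up 21.9% ± 1.32 and 12.5% ± 0.989. In parental cells the LTBP1 share was 70.1% with doxycycline and 77.1% without it, and the LTBP3 share 14.4% and 11.6%.

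TGFB1I1, a LIM-domain coactivator that links focal adhesions to the nucleus, had 82.5, 109.6 and 129 CPM in induced Hs578 lines, against 62.9, 78.0 and 70.7 CPM without doxycycline. All induced libraries lay above the uninduced ones, and hairpin 3 showed the largest log2 ratio, 0.87, after 0.39 and 0.49 for hairpins 1 and 2. The fitted rise was 1.52-fold (log2 fold change 0.60, SE 0.16, adjusted p = 0.0124, edgeR). It missed the threshold without the induced library of hairpin 3 (0.44, adjusted p = 0.06), the uninduced library of hairpin 1 (0.53, adjusted p = 0.0657) or both libraries of hairpin 3 (0.44, adjusted p = 0.186), and on the FPKM scale (0.23, adjusted p = 0.144, limma). Parental cells had 112 CPM with doxycycline and 68.4 CPM without it, a log2 ratio of 0.71.

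Doxycycline in Hs578 parental cells, measured in 1 library each, thus gave log2 ratios of the same sign as the 3 derived lines for TGFB1, TGFBR1, TGFBR2, LTBP2, LTBP3 and TGFB1I1, and of the opposite sign to all 3 for TGFB2. Set against that parental ratio, the induction effect in Hs578 was called by edgeR for 0 of 10 genes, against 0.406% of all genes tested. At an unadjusted p under 0.05 there were 3, against 14.2% of all genes. DESeq2 called 2, against 2.68% of the genes it gave an adjusted p, and the replicate block 1, against 0.998%. The largest departures were TGFB3 (-1.85, SE 0.62, adjusted p = 0.191), TGFB2 (-1.33, SE 0.32, adjusted p = 0.0922) and LTBP4 (-1.03, SE 0.25, adjusted p = 0.0922), all of which lay lower in induced lines than the parental ratio. TGFB2 was called by DESeq2 (-1.37, adjusted p = 2.8e-05), with derived line as a replicate block (-1.32, adjusted p = 0.016) and by limma on log2(FPKM + 1) (-1.27, adjusted p = 0.0267). LTBP4 was called by DESeq2 (-1.07, adjusted p = 0.00781) and without the induced library of hairpin 2 (-1.17, adjusted p = 0.0349) or both libraries of hairpin 2 (-1.23, adjusted p = 0.0449). The 3 genes with a called rise differed from the parental ratio by -0.28 (TGFB1, SE 0.18), -0.21 (LTBP3, SE 0.23) and -0.11 (TGFB1I1, SE 0.31), with adjusted p from 0.508 to 0.944. For the receptors the difference was 0.33 (TGFBR1, SE 0.23) and 0.07 (TGFBR2, SE 0.24). The fit took the spread of the hairpin groups for the lone parental libraries too, so a change made by the hairpin and one made by the drug cannot be told apart for these 5 genes at this precision.

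**Figure D3:**
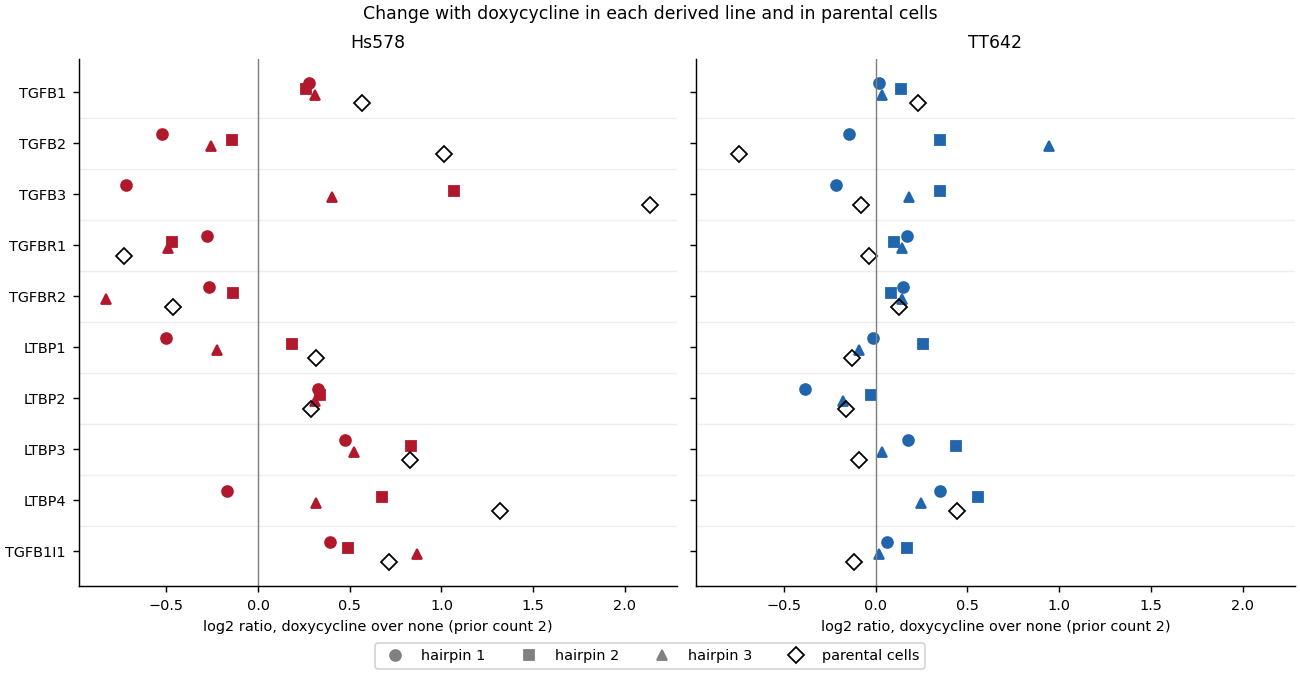
Log2 ratio of CPM with doxycycline over without (prior count 2) in each derived line (filled symbols) and in parental cells (open diamonds), for Hs578 on the left and TT642 on the right. In Hs578 the 3 TGFB2 symbols lie between -0.52 and -0.14 and the parental diamond at 1.01, while for LTBP3 the symbols (0.48 to 0.83) and the diamond (0.83) lie on the same side.

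In TT642 no gene of the 10 was called with induction by edgeR, against 0.0285% of all genes tested. At an unadjusted p under 0.05 there was 1, LTBP4, against 7.82% of all genes, and DESeq2 called 0. Induced and uninduced libraries did not overlap for 2 of the 10, LTBP4 and TGFBR2, against 14.8% of all genes, so neither count stands far from its background. LTBP4, the most abundant LTBP transcript of these cells, had 287, 302 and 301 CPM in induced TT642 lines and 225, 205 and 254 CPM without doxycycline. The groups did not overlap, and the change of 0.38 (SE 0.12) had an adjusted p of 0.397. Parental TT642 cells had 215 CPM with doxycycline and 158 CPM without it, a log2 ratio of 0.44, which lies between those of hairpins 1 and 2 (0.35 and 0.56). TGFBR2 was the other gene without overlap, at 273, 271 and 262 CPM in induced lines and 246, 256 and 237 CPM in uninduced ones (0.13, SE 0.12, adjusted p = 0.875). Its parental values were 236 CPM with doxycycline and 216 CPM without it.

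TGFB1 had 135, 161 and 160.1 CPM in induced TT642 lines and 133, 147 and 156 CPM in uninduced ones, which overlapped (0.07, SE 0.09, adjusted p = 0.935, edgeR). TGFBR1 had 79.0, 77.6 and 63.7 CPM in induced lines and 70.2, 72.3 and 57.8 CPM without doxycycline. Each hairpin was higher with induction, by 0.10 to 0.17 on the log2 scale, but the groups overlapped (0.14, SE 0.11, adjusted p = 0.844). LTBP2 had 54.5, 23.5 and 58.9 CPM in induced TT642 lines and 71.3, 23.9 and 66.6 CPM without doxycycline, and hairpin 2 stood below the other two under both treatments. LTBP3 ran from 88.2 to 95.9 CPM in induced lines and from 65.0 to 92.7 CPM in uninduced ones, and TGFB1I1 from 27.0 to 34.4 CPM and from 24.0 to 32.9 CPM. TGFB3 ranges were 4.74 to 5.89 CPM with induction and 3.70 to 6.80 CPM without it, LTBP1 ranges 6.46 to 8.86 CPM and 6.13 to 8.96 CPM, and TGFB2 was under 1 CPM in all TT642 derived lines but the uninduced line 1. Net of the parental ratio, edgeR called 0 of the 10 genes in TT642, against 0% of all genes, with 0 at an unadjusted p under 0.05 and 0 by DESeq2.

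The induction effects of the lines were compared directly by their difference, Hs578 minus TT642. By edgeR 0 of 10 genes were called, against 5.24% of all genes tested. At an unadjusted p under 0.05 there were 4, against 24.6% of all genes. The largest differences with a raw p under 0.05 were TGFBR1 (-0.54, SE 0.16, adjusted p = 0.0602), TGFB1I1 (0.52, SE 0.23, adjusted p = 0.172), TGFBR2 (-0.52, SE 0.17, adjusted p = 0.0819) and LTBP3 (0.41, SE 0.16, adjusted p = 0.135). With derived line as a replicate block, 4 were called, against 12.6% of all genes: TGFBR1 (adjusted p = 0.00986), LTBP2 (0.0143), TGFB1I1 (0.0334) and TGFBR2 (0.0455). DESeq2 called 2, TGFBR1 (adjusted p = 0.0261) and TGFBR2 (0.032), against 12.6% of the genes it gave an adjusted p. Without the induced Hs578 library of hairpin 1, edgeR called 3, TGFBR1 (adjusted p = 0.0132), TGFB1I1 (0.031) and TGFBR2 (0.0392), against 14.8% of all genes, and without the uninduced TT642 library of hairpin 2 it called LTBP3 (0.0419).

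**Figure D4:**
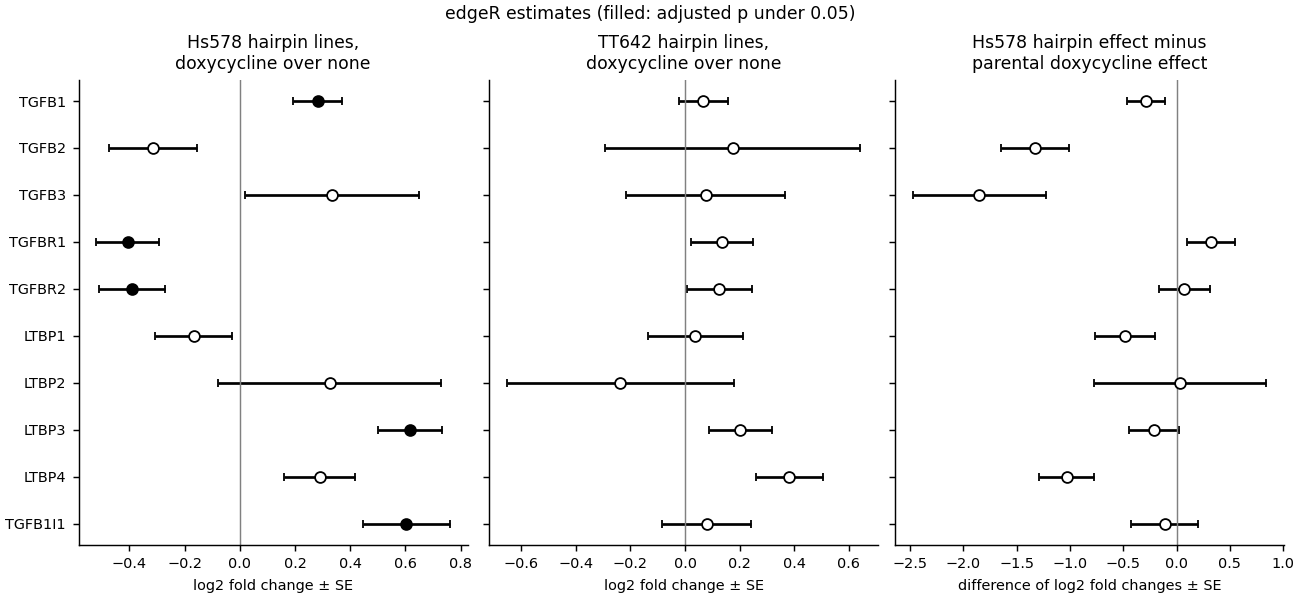
edgeR estimates with SE bars for each gene, as log2 fold changes for induction in Hs578 (left) and in TT642 (middle), and as the difference between the Hs578 hairpin effect and the parental doxycycline effect (right). Filled points have an adjusted p under 0.05: 5 genes on the left and none in the other panels.

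Carrying a hairpin without doxycycline was examined by setting uninduced derived lines against parental cells without the drug. In Hs578 edgeR called 0 of 10 genes, against 0% of all genes tested, with 1 at an unadjusted p under 0.05 (TGFBR1, -0.38, SE 0.15, adjusted p = 1), against 1.91% of all genes, and 0 by DESeq2. In TT642 edgeR called 0 of 10, against 0.919% of all genes (0.762% lower), with 4 at an unadjusted p under 0.05, against 12% of all genes, and 2 by DESeq2, against 1.51%. LTBP1 had 8.96, 6.13 and 6.90 CPM in uninduced TT642 lines and 13.3 CPM in parental cells (-0.86, SE 0.22, adjusted p = 0.114, edgeR, and 0.0179, DESeq2). TGFB2 had 19, 10 and 3 counts in uninduced TT642 lines and 35 in parental cells (-1.50, SE 0.51, adjusted p = 0.251, edgeR, and 0.0133, DESeq2). Without both libraries of hairpin 1, edgeR called TGFB2 (-2.25, adjusted p = 0.0413) and LTBP1 (-1.03, adjusted p = 0.0352), and without those of hairpin 2 it called LTBP2 (-0.78, adjusted p = 0.00968). LTBP2 had 71.3, 23.9 and 66.6 CPM in uninduced TT642 lines and 118 CPM in parental cells, and all 3 lay below the parental library.

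The rest of the pathway was described with 5 lists that together hold 117 other genes, 107 of them tested. In Hs578 with induction, edgeR called 14 of the 107 higher and 23 lower, against 15.2% and 14.1% of all genes. TGF-beta target genes were the list with most rises, 7 of 28 tested, with 2 lower and a median log2 fold change of 0.39. Net of the parental ratio, the median of the targets was -0.12. Among them COL3A1, a fibrillar collagen, averaged 1481 ± 596 CPM in induced lines and 647 ± 99.9 CPM in uninduced ones (SD, n = 3; 1.2, SE 0.29, adjusted p = 0.0113), and ACTA2, smooth muscle actin, 61.7 ± 31.1 CPM and 16.9 ± 1.46 CPM (1.87, SE 0.30, adjusted p = 0.00208). In parental Hs578 cells COL3A1 had 2480.5 CPM with doxycycline and 529 CPM without it, and ACTA2 49.4 and 17.7 CPM. The targets also hold TSC22D1, a leucine zipper protein, and VEGFA, an angiogenic factor, which fell by 0.67 and 0.78.

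Co-receptors and receptor regulators had 4 of 10 tested lower and 1 higher, against 14.1% and 15.2% of all genes. Their median was -0.21, or -0.10 net of the parental ratio. TGFBR3 (betaglycan), which presents TGFB2 to TGFBR2, averaged 14.6 ± 1.66 CPM in induced Hs578 lines and 29 ± 2.63 CPM in uninduced ones (-0.99, SE 0.19, adjusted p = 0.00238, edgeR), and parental cells had 25.3 CPM with doxycycline and 31.2 CPM without it. CD109, a co-receptor that dampens signalling, averaged 174 ± 12.1 CPM with induction and 257 ± 35.1 CPM without it (-0.56, SE 0.12, adjusted p = 0.00434). ENG (endoglin) was the member that rose, at 164 ± 15.0 CPM against 118 ± 9.73 CPM (0.47, SE 0.15, adjusted p = 0.0274). Set against the parental ratio, the induction effect differed by 0.04 for ENG, -0.23 for CD109 and -0.69 for TGFBR3.

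SMAD signal transducers had 7 of 20 lower and 1 higher, against 14.1% and 15.2% of all genes, with a median of -0.22. Net of the parental ratio, that median was -0.04. The receptor-regulated SMAD1 (-0.41, SE 0.10, adjusted p = 0.00675), SMAD2 (-0.28, SE 0.08, adjusted p = 0.0173) and SMAD5 (-0.37, SE 0.12, adjusted p = 0.0324) and the common partner SMAD4 (-0.32, SE 0.07, adjusted p = 0.00507) fell. The ubiquitin ligases SMURF1 and SMURF2 and the deubiquitinase USP9X fell by 0.29, 0.43 and 0.38, and the repressor TGIF2 rose by 0.34. SMAD3, the main TGF-beta effector of mesenchymal cells, had 364 ± 34.4 CPM in induced lines and 326 ± 15.5 CPM in uninduced ones and was not called.

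Activators and matrix anchors of latent TGF-beta had 3 of 20 higher and 3 lower, close to the 15.2% and 14.1% of all genes. Their median was 0.02, or -0.42 net of the parental ratio. BGN (biglycan), a matrix proteoglycan that binds TGF-beta, averaged 337 ± 121 CPM in induced Hs578 lines and 135 ± 19.5 CPM in uninduced ones (1.32, SE 0.26, adjusted p = 0.0049, edgeR), against 444 CPM with and 112 CPM without doxycycline in parental cells. ITGB8, the integrin subunit that releases TGF-beta with ITGAV, averaged 5.02 ± 1.94 CPM with induction and 14.5 ± 3.18 CPM without it (-1.53, SE 0.42, adjusted p = 0.0209), and ITGB1 691 ± 13.1 CPM and 1058 ± 75.0 CPM (-0.61, SE 0.10, adjusted p = 0.00103). In parental cells, with 1 library each, ITGB1 had 1171 CPM with doxycycline and 1128 CPM without it. The induction effect differed from that parental ratio by -0.67. The activin and BMP branch had 7 of 29 lower and 2 higher, against 14.1% and 15.2% of all genes. Its median was -0.41, or -0.26 net of the parental ratio. BMP1, a protease that cleaves LTBP1 and collagen propeptides, averaged 214 ± 40.2 CPM in induced lines and 92.4 ± 2.47 CPM in uninduced ones (1.21, SE 0.12, adjusted p = 0.000102, edgeR). GDF15, a stress-induced member of the superfamily, averaged 5.75 ± 1.68 CPM and 24.2 ± 11.3 CPM (-2.08, SE 0.33, adjusted p = 0.00189, edgeR). The changes of ITGB8, BMP1 and GDF15 are given here without the parental ratio, so they do not separate hairpin from drug.

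**Figure D5:**
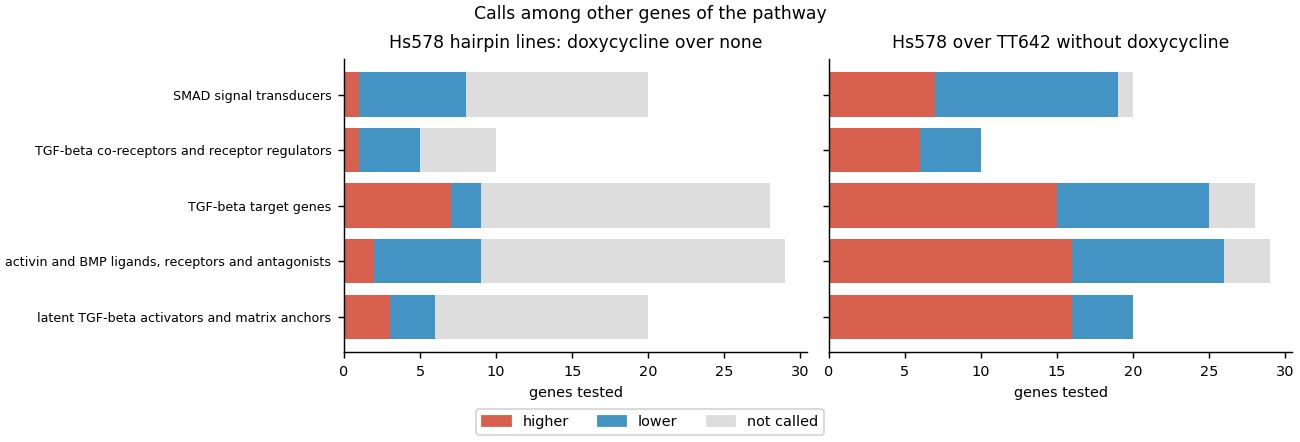
Number of tested genes called higher, lower or not called at an adjusted p under 0.05 (edgeR) in each of the 5 pathway lists, for induction in Hs578 derived lines (left) and for Hs578 over TT642 without doxycycline (right). Of 28 target genes 7 rose and 2 fell with induction, and of 20 SMAD signal transducers 1 rose and 7 fell. Over all genes tested, 15.2% were called higher and 14.1% lower with induction.

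In TT642 none of the 107 genes was called with induction by edgeR or by DESeq2, and 11 had an unadjusted p under 0.05, against 7.82% of all genes. The difference between the lines was called for 10 of them, 4 higher and 6 lower in Hs578, against 2.76% and 2.48% of all genes. These held BMP1 (1.22, SE 0.17, adjusted p = 0.0048, edgeR), TAGLN (2.37, SE 0.47, adjusted p = 0.0327) and TGFBI (1.42, SE 0.32, adjusted p = 0.0371) on the higher side, and TGFBR3 (-1.62, SE 0.29, adjusted p = 0.0157), ITGB1 (-0.56, SE 0.14, adjusted p = 0.0418) and ACVR1B (-0.66, SE 0.15, adjusted p = 0.0336) on the lower side. Net of the parental ratio, 0 of 107 were called in Hs578 by edgeR, with 9 at an unadjusted p under 0.05, against 14.2% of all genes, and 4 by DESeq2, against 2.68%.

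Without doxycycline, 60 of the 107 genes were higher and 40 lower in Hs578 than in TT642, against 41% and 39.7% of all genes. Activators and matrix anchors leaned to Hs578, with 16 of 20 higher, 4 lower and a median log2 fold change of 3.96. FN1 (fibronectin) averaged 10854 ± 1027 CPM in uninduced Hs578 lines and 0.758 ± 0.497 CPM in uninduced TT642 lines, and THBS1, the thrombospondin that activates latent TGF-beta, 1085 ± 172 CPM and 0.868 ± 0.168 CPM. Co-receptors and receptor regulators had 6 of 10 higher and 4 lower in Hs578 (median 1.30). SMAD signal transducers had 7 of 20 higher and 12 lower (median -0.26). Higher in Hs578 were the co-receptor CD109, which averaged 257 ± 35.1 CPM in Hs578 and 0.596 ± 0.181 CPM in TT642, and SMAD3, with 326 ± 15.5 CPM and 32.0 ± 2.17 CPM. BMP5 ran the other way, with 0.0581 ± 0.101 CPM in uninduced Hs578 lines and 133 ± 11.9 CPM in uninduced TT642 lines (adjusted p = 7.12e-14, edgeR).

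The genes whose log2 CPM followed each ligand most closely were ranked by the smaller of the Pearson correlations over the 8 Hs578 and over the 8 TT642 libraries, among 11106 genes. These libraries share doxycycline groups and derived lines, so the values only describe them. For TGFB1 they were PLTP, TUBG2 and TMEM134 (0.92, 0.92 and 0.90), for TGFB2 SATB1, ZMAT3 and PARD3B (0.84, 0.83 and 0.83), and for TGFB3 SRGAP3, AGAP2 and MMP2 (0.88, 0.82 and 0.82). These are the highest of 11106 values, so they are high by selection. The TGFB2 correlations in TT642 rest on 3 to 35 TGFB2 counts per library.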

How the data were processed

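Polyadenylated RNA was sequenced as 16 stranded libraries, per the labels' protocols. The authors deposited raw counts per gene symbol for 20114 genes and FPKM for 20111. Per the submitters' processing notes the genome was hg19. No source used here names the aligner, counter, annotation or treatment time. Counts were fitted with edgeR 4.0.16 (R 4.3.3; quasi-likelihood, TMM, default expression filter on 8 groups, robust moderation, 1 mean per group, 8 residual degrees of freedom). Two-sided p-values were adjusted by Benjamini-Hochberg over the 14035 genes tested, and a gene was called under 0.05. Tests were checked on simulated counts. DESeq2 1.42.0 and limma 3.58.1 on log2(FPKM + 1) or log2(FPKM + 0.1) were alternatives. Levels are TMM-scaled CPM, and ratios of single libraries used a prior count of 2.

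The genes and lists were chosen with earlier results of these data known. All 10 genes were named in each comparison, as were up to 5 called genes of each list with the largest changes (mean log2 CPM of at least 1), and not all of these are described. For induction in Hs578, SMAD2, SMAD3, SMAD4, SMURF1, TSC22D1 and VEGFA fall outside that rule and were chosen after their values were seen. The numbers 1 to 3 in the titles were read as pairing libraries of the same derived line. In TT642 libraries with the same number deviated together from their group means (r of 0.44, 0.42 and 0.42), but Hs578 libraries did so less (0.13, -0.028 and 0.0012).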

Additional observations from a re-analysis of the deposited data

Results flagged for a closer look

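TGFBR1 was lower with induction in every Hs578 derived line and higher in every TT642 derived line, with log2 ratios of -0.28, -0.47 and -0.49 in Hs578 and 0.17, 0.10 and 0.14 in TT642. The difference of the fitted effects, Hs578 minus TT642, was -0.54 and was not called (SE 0.16, adjusted p = 0.0602, edgeR). TGFBR2 split in the same manner, with -0.27, -0.14 and -0.83 in Hs578 and 0.15, 0.09 and 0.14 in TT642, and a difference of -0.52 (SE 0.17, adjusted p = 0.0819, edgeR). LTBP2 split the other way, with 0.33, 0.34 and 0.31 in Hs578 and -0.39, -0.02 and -0.18 in TT642, and a difference of 0.56 (SE 0.58, adjusted p = 0.601, edgeR). With derived line as a replicate block in edgeR all 3 differences were called (adjusted p = 0.00986, 0.0455 and 0.0143), against 12.6% of all genes. These 3 genes were picked because the hairpin ratios of the lines had opposite signs. The block works on those same ratios, so its calls are no separate support. In parental cells doxycycline gave log2 ratios of -0.73 in Hs578 and -0.03 in TT642 for TGFBR1, -0.46 and 0.13 for TGFBR2, and 0.29 and -0.16 for LTBP2.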

How the results depend on the processing

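Every gene kept its direction with induction in Hs578 in all alternatives, except TGFB3 without both libraries of hairpin 2 (-0.022). LTBP3 alone kept its call in all of them. Of the 10 genes, 5 were called in Hs578, against 3 on log2(FPKM + 0.1) values, 7 with the replicate block, 7 with Hs578 libraries alone and 1 to 6 when 1 library or hairpin was left out. Hs578 against TT642 without doxycycline gave 8, against 7 to 9 over all alternatives. The difference between the lines gave 0 calls, against 2 by DESeq2, 4 with the replicate block and 0 to 3 when leaving out. Net of the parental ratio, Hs578 gave 0 calls, against 2 by DESeq2, 1 on log2(FPKM + 1) values, 1 with the replicate block and 0 to 1 when leaving out. Uninduced TT642 lines against parental cells gave 0, against 2 by DESeq2 and 0 to 2 when leaving out. The replicate block, which pairs libraries of a derived line, changed no call among the 10 genes beyond those given in the text and those counted here. The cause of these differences was not tested. On log2(FPKM + 0.1) values the median of all genes moved to -0.12 with induction in Hs578 and to -0.15 between the lines.

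Directions that turned were all of uncalled values. LTBP2 in Hs578 net of parental cells was 0.034, against -0.0063 with relative log expression scaling, -0.0065 in DESeq2, and -0.27 and -0.29 on log2(FPKM + 1) and log2(FPKM + 0.1) values. On these FPKM scales LTBP1 induction in TT642 was -0.19 and -0.26, LTBP3 in Hs578 net of parental cells 0.081 and 0.083, TGFBR1 in TT642 net -0.10 and -0.11, LTBP1 in TT642 net -0.29 and -0.39, and LTBP3 in uninduced Hs578 lines against parental cells -0.033 and -0.034. TGFB3 for the difference between lines was -0.00011 on log2(FPKM + 0.1) values. TGFBR2 in TT642 net was 0.0016 with TT642 libraries alone, and Hs578 against TT642 was -0.25 for TGFBR2 among induced lines.

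Leaving out 1 library or hairpin gave these ranges where a direction turned. Induction in TT642 ran from -0.084 to 0.21 for LTBP1, -0.60 to 0.077 for LTBP2, -0.047 to 0.17 for TGFB1I1, -0.24 to 0.92 for TGFB2 and -0.12 to 0.31 for TGFB3. Induction in Hs578 ran from -0.022 to 0.72 for TGFB3. The difference between lines ran from -0.23 to 0.10 for LTBP4. In Hs578 net of parental cells the ranges were -0.017 to 0.080 for LTBP2, -0.29 to 0.046 for TGFB1I1 and -0.063 to 0.24 for TGFBR2. In TT642 net they were -0.43 to 0.24 for LTBP2, -0.15 to 0.023 for LTBP4, -0.043 to 0.39 for TGFB3 and -0.028 to 0.026 for TGFBR2. In uninduced lines against parental cells they were -0.013 to 0.083 for LTBP2 and -0.035 to 0.12 for TGFB1I1 in Hs578, and -0.30 to 0.14 for TGFB3 in TT642. TGFB2 in TT642, with 3 to 35 counts per library, is limited by depth.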
